A study of Mus musculus with 30 samples.

Results

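The genes of the MHC class I antigen presentation pathway were followed by poly(A) RNA-seq in neuronal progenitor cells (NPCs) derived from mouse ESCs. The rule named 10 genes, which are the heavy chains *H2-K1* and *H2-D1*, the light chain *B2m*, the peptide transporter subunits *Tap1* and *Tap2*, the loading factor *Tapbp*, the immunoproteasome subunits *Psmb8*, *Psmb9* and *Psmb10*, and the regulator *Nlrc5*. Of these, 9 were found among the 25400 genes of the count table, and all 9 passed the filter on low counts that left 16582 genes. The expression of *Psmb9* was not analysed here. The 24 libraries came from 8 lines with 3 libraries each. They were WT cells, cells without MBD3 (*Mbd3* KO), and *Mbd3* KO cells that, by their labels, express MBD3a, MBD3ΔMBD (MBD3a without its methyl-CpG-binding domain, delMBD in the labels), MBD2a, MBD2aΔGR (MBD2a without its glycine-arginine stretch, delGR in the labels), MBD2aR181C (a point mutant) or MBD2t (the truncated isoform of MBD2). All lines but WT therefore lack endogenous MBD3. Each library stands for a separately derived clone except in the MBD2t line, where the 3 libraries are repeats of 1 clone. The libraries carry the numbers s01 to s24 in the order WT, *Mbd3* KO, MBD3a, MBD3ΔMBD, MBD2a, MBD2aΔGR, MBD2aR181C and MBD2t. Because the RNA came from whole cultures, fewer cells that express a gene and less RNA per cell cannot be told apart.

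MBD2 and MBD3 are alternative subunits of the NuRD complex, which carries histone deacetylase and chromatin remodelling activities. MHC class I molecules show peptides from inside the cell to cytotoxic T cells. The proteasome cuts proteins into peptides, and in the immunoproteasome the catalytic subunits encoded by *Psmb8*, *Psmb9* and *Psmb10* take the places of those encoded by *Psmb5*, *Psmb6* and *Psmb7*. The TAP transporter, a dimer of the *Tap1* and *Tap2* products, brings peptides into the endoplasmic reticulum, where tapasin (*Tapbp*) helps to load them onto a heavy chain paired with beta-2 microglobulin (*B2m*). NLRC5 is a coactivator of class I promoters that acts through proteins bound to the X and Y boxes, and interferons induce many of these genes. ESCs and early neural cells are known for low class I levels.

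Promoter sequences were read from RefSeq (GRCm38.p6) for 8 of the 10 genes. *Tap2* and *Nlrc5* had no entry. The bases before the start site were searched on both strands for the interferon-stimulated response element (GAAA, any 2 bases, GAAA), the gamma-activated site TTCNNNGAA, the Y box CCAAT, the X2 site TGACG and the NF-kB site GGGNNTTCC. No 2 matches overlapped within the windows of these genes. The promoters shown are those of the light chain and both heavy chains, which pair up in the class I molecule, the stretch between *Tap1* and *Psmb9*, which are transcribed away from each other, and *Psmb8*. They are written 5′ to 3′ on the gene's strand (that of *Tap1* for the shared stretch), end at the base before the start site, and have motif matches in capitals, where a match on the other strand appears as its reverse complement (ATTGG for the Y box).
*B2m*, chr2:122147437-122147686, plus strand: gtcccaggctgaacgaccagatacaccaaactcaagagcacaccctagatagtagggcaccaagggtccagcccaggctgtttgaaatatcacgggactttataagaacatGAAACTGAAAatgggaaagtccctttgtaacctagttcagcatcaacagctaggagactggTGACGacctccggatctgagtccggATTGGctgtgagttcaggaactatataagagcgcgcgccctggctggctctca
*H2-K1*, chr17:34000348-34000597, minus strand: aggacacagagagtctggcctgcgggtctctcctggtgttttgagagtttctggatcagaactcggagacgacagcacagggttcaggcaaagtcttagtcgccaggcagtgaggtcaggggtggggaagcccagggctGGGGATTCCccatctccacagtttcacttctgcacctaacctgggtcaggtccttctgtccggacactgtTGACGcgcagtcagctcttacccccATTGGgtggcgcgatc
*H2-D1*, chr17:35262844-35263093, plus strand: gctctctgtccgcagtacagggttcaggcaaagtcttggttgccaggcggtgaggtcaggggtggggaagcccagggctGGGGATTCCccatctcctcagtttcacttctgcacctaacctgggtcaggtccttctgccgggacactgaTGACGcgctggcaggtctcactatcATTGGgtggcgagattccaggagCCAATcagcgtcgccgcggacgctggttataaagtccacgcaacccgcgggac
*Tap1* and *Psmb9*, chr17:34187331-34187555, plus strand: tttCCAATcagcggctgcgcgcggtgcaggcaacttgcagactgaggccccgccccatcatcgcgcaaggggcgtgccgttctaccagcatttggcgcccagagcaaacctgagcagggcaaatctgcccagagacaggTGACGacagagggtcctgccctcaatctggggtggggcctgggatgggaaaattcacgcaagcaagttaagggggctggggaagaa
*Psmb8*, chr17:34197945-34198194, plus strand: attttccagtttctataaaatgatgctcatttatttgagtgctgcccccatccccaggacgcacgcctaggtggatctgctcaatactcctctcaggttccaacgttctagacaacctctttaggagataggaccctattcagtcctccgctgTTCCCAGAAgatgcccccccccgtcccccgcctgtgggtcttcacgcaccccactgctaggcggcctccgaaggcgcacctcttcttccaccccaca

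The heavy chain promoters were alike. Set side by side with *H2-D1* shifted by 60 bases, the *H2-K1* and *H2-D1* windows had the same base at 166 of 190 positions (87.4%), and the NF-kB match, the X2 site and a Y box then lay at the same places. RefSeq listed a further start of *H2-K1*, whose window (chr17:34000334-34000583) is not shown. That window held an additional Y box, 6 to 2 bases before its start. The interferon-stimulated response element, in the form searched for, was found in *B2m*, 139 to 130 bases before its start, and in none of the other 7 promoters. Other forms of this element were not searched for, so their absence from these promoters is not shown. The gamma-activated site was found in *Psmb8* alone. A Y box was present in 6 of the 8 promoters and an X2 site in 5 of the 8, in *Tap1* and *Psmb9* through the 225 bases that they share. The *Psmb10* window held no match. Among all 32851 promoter windows of the same length, 33.8% held a Y box, 17.8% an X2 site, 7.02% a gamma-activated site, 4.98% an NF-kB site and 2.98% an interferon-stimulated response element. A match describes letters and not a bound site.

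**Figure D1:**
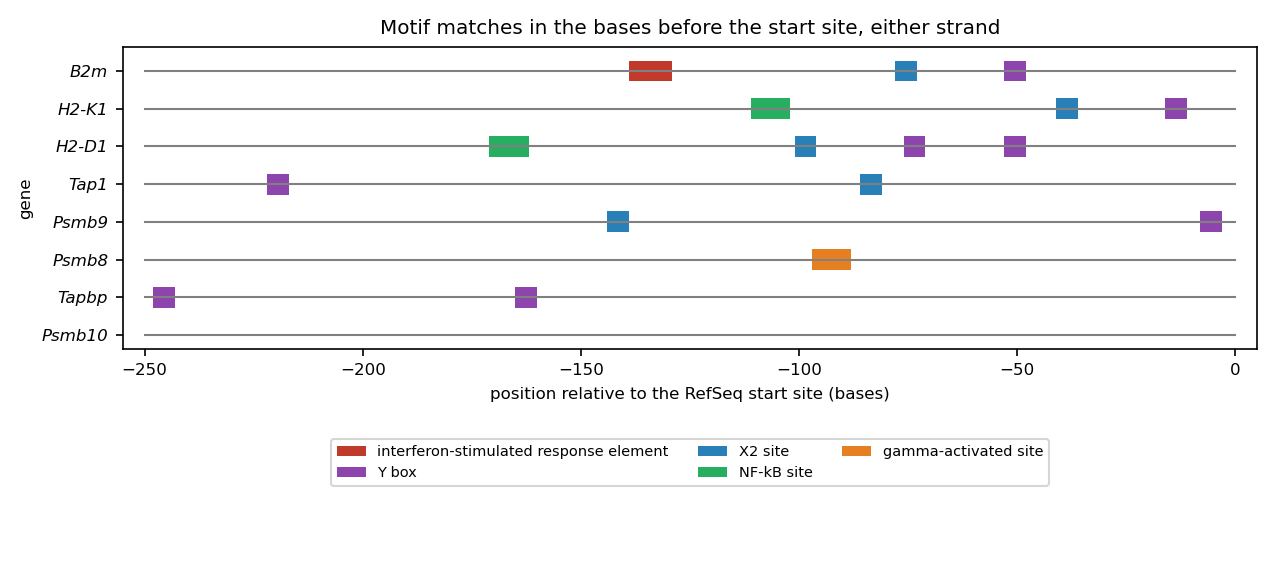
Positions of motif matches on either strand (coloured boxes) in the 250 bases before the RefSeq start site of 8 genes (rows), with the distance to the start in bases on the horizontal axis. *H2-K1* and *H2-D1* carry the same series of an NF-kB site, an X2 site and a Y box, and the *Psmb10* row is empty.

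Library totals lay between 27993858 and 49392806 counts, so that 3 counts corresponded to 0.0607 to 0.115 CPM, and none of the 9 genes was at 0 in any library. Reads on *Mbd3* were at 149 to 157 CPM in WT and at 34.2 to 73.8 CPM in *Mbd3* KO. *Mbd2* reads lay between 67.0 and 87.2 CPM in the MBD2a line, next to 64.2 to 70.9 CPM in *Mbd3* KO, while they reached 253 to 700 CPM over the MBD2aΔGR, MBD2aR181C and MBD2t lines. The reads thus did not show a raised *Mbd2* level in the libraries labelled MBD2a as they did in the other 3 lines, and the MBD2a line stands here for the libraries with that label. The labelled cell type was checked with 10 neuronal progenitor markers. Their summed level was 1522 to 2548 CPM in WT and 151 to 248 CPM in *Mbd3* KO, where all 10 were called lower. The sum was also low in the lines labelled MBD2a (102 to 269 CPM) and MBD2t (189 to 211 CPM). MBD3a, MBD3ΔMBD and MBD2aR181C had 1840 to 2245, 2269 to 2871 and 1447 to 2597 CPM, and MBD2aΔGR had 892 to 1953 CPM.

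*Mbd3* KO was compared with WT to ask what the loss of MBD3 does to these genes. All 9 genes were higher in each of the 3 *Mbd3* KO libraries than in any WT library, and 8 of the 9 were called higher (edgeR quasi-likelihood test, Benjamini-Hochberg adjusted p under 0.05 and a log2 fold change above 1). The exception was *B2m*. Of all 16582 genes, 33.8% were called in this comparison, 19.6% were called higher, and in 62.2% the libraries did not overlap. The median log2 fold change was 1.67 over the 9 genes and -0.03 over all genes.

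Of the heavy chains, *H2-D1* (chromosome 17, 35399675 to 35404444 on mm9) was measured at 58.2, 59.5 and 73.0 CPM in WT and at 263, 203 and 234 CPM in *Mbd3* KO. Its 3.67-fold higher mean was a log2 fold change of 1.88 (SE 0.28, adjusted p = 1.5e-05). *H2-K1* (chromosome 17, 34132962 to 34137278) had 57.9, 65.2 and 89.4 CPM in WT and 198, 146 and 149 CPM in *Mbd3* KO. The groups did not overlap, and the log2 fold change was 1.21 (SE 0.21, adjusted p = 6.34e-05). Reads of the class I heavy chains can be shared between near-identical copies, so the split between these genes is uncertain. *B2m* (chromosome 2, 121973422 to 121978819), the chain that every class I heavy chain needs, had the smallest change. It stood at 27.6, 41.8 and 36.5 CPM in WT and 50.0, 69.3 and 76.5 CPM in *Mbd3* KO. Its log2 fold change of 0.89 (SE 0.29, adjusted p = 0.014) stayed under the fold change threshold and passed it when s02 was left out (1.03) or s04 was left out (1.04). Per kilobase of exon, the 3 chains were at 41.1 ± 8.3 (*B2m*), 27.2 ± 6.3 (*H2-K1*) and 24.6 ± 3.2 CPM per kb (*H2-D1*) in WT (SD, n = 3), and at 75.9 ± 16, 63.0 ± 11 and 90.2 ± 12 CPM per kb in *Mbd3* KO. The log2 ratio of *H2-D1* to *B2m* per kb was -1.08 to -0.52 in WT and -0.04 to 0.81 in *Mbd3* KO, where *H2-D1* was clearly above *B2m* in s04 and close to it in the other two libraries.

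The peptide transporter and its partner rose as well. *Tap1* (chromosome 17, 34324498 to 34334170) had 12.2, 13.6 and 14.9 CPM in WT and 37.1, 32.02 and 33.8 CPM in *Mbd3* KO, a log2 fold change of 1.34 (SE 0.16, adjusted p = 2.47e-06). *Tap2* (chromosome 17, 34340472 to 34353266) was close to it in size of change, with 9.23, 10.0 and 10.8 CPM in WT against 25.3, 26.6 and 25.4 CPM in *Mbd3* KO (log2 fold change 1.36, SE 0.21). The WT and *Mbd3* KO values of both subunits were well apart. Tapasin (*Tapbp*, chromosome 17, 34052844 to 34066235) showed the largest change of the 9 genes, from 29.7, 37.7 and 38.8 CPM in WT to 192, 140 and 137 CPM in *Mbd3* KO (log2 fold change 2.14, SE 0.25). *Tap1* shares 412 exon bases with *Psmb9* on the opposite strand, *Tap2* shares 698 and *Psmb8* 187 with predicted genes on the opposite strand and *Tapbp* 61 with *Zbtb22* on its own strand, so that reads there cannot be assigned with certainty where the strand was not used in counting.

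Both measured immunoproteasome subunits rose. *Psmb8* (chromosome 17, 34334666 to 34338399) went from 2.36, 2.94 and 5.14 CPM in WT to 12.6, 16.9 and 14.1 CPM in *Mbd3* KO (log2 fold change 2.05, SE 0.41, adjusted p = 0.000274). *Psmb10* (chromosome 8, 108459628 to 108462292), which lies outside the MHC, went from 9.26, 11.1 and 16.9 CPM to 44.3, 45.2 and 39.7 CPM (log2 fold change 1.79, SE 0.26). *Nlrc5* (chromosome 8, 96996663 to 97051172), the coactivator, was the weakest of the 9 genes with 19 to 29 reads per WT library. Its levels were 0.590, 0.798 and 0.463 CPM in WT and 1.49, 2.28 and 2.04 CPM in *Mbd3* KO, and the log2 fold change was 1.67 (SE 0.31, adjusted p = 0.000171). The 4 genes *Tap1*, *Psmb8*, *Tap2* and *Psmb9* lie next to each other on chromosome 17, whereas *B2m*, *Psmb10* and *Nlrc5* lie on other chromosomes.

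**Figure D2:**
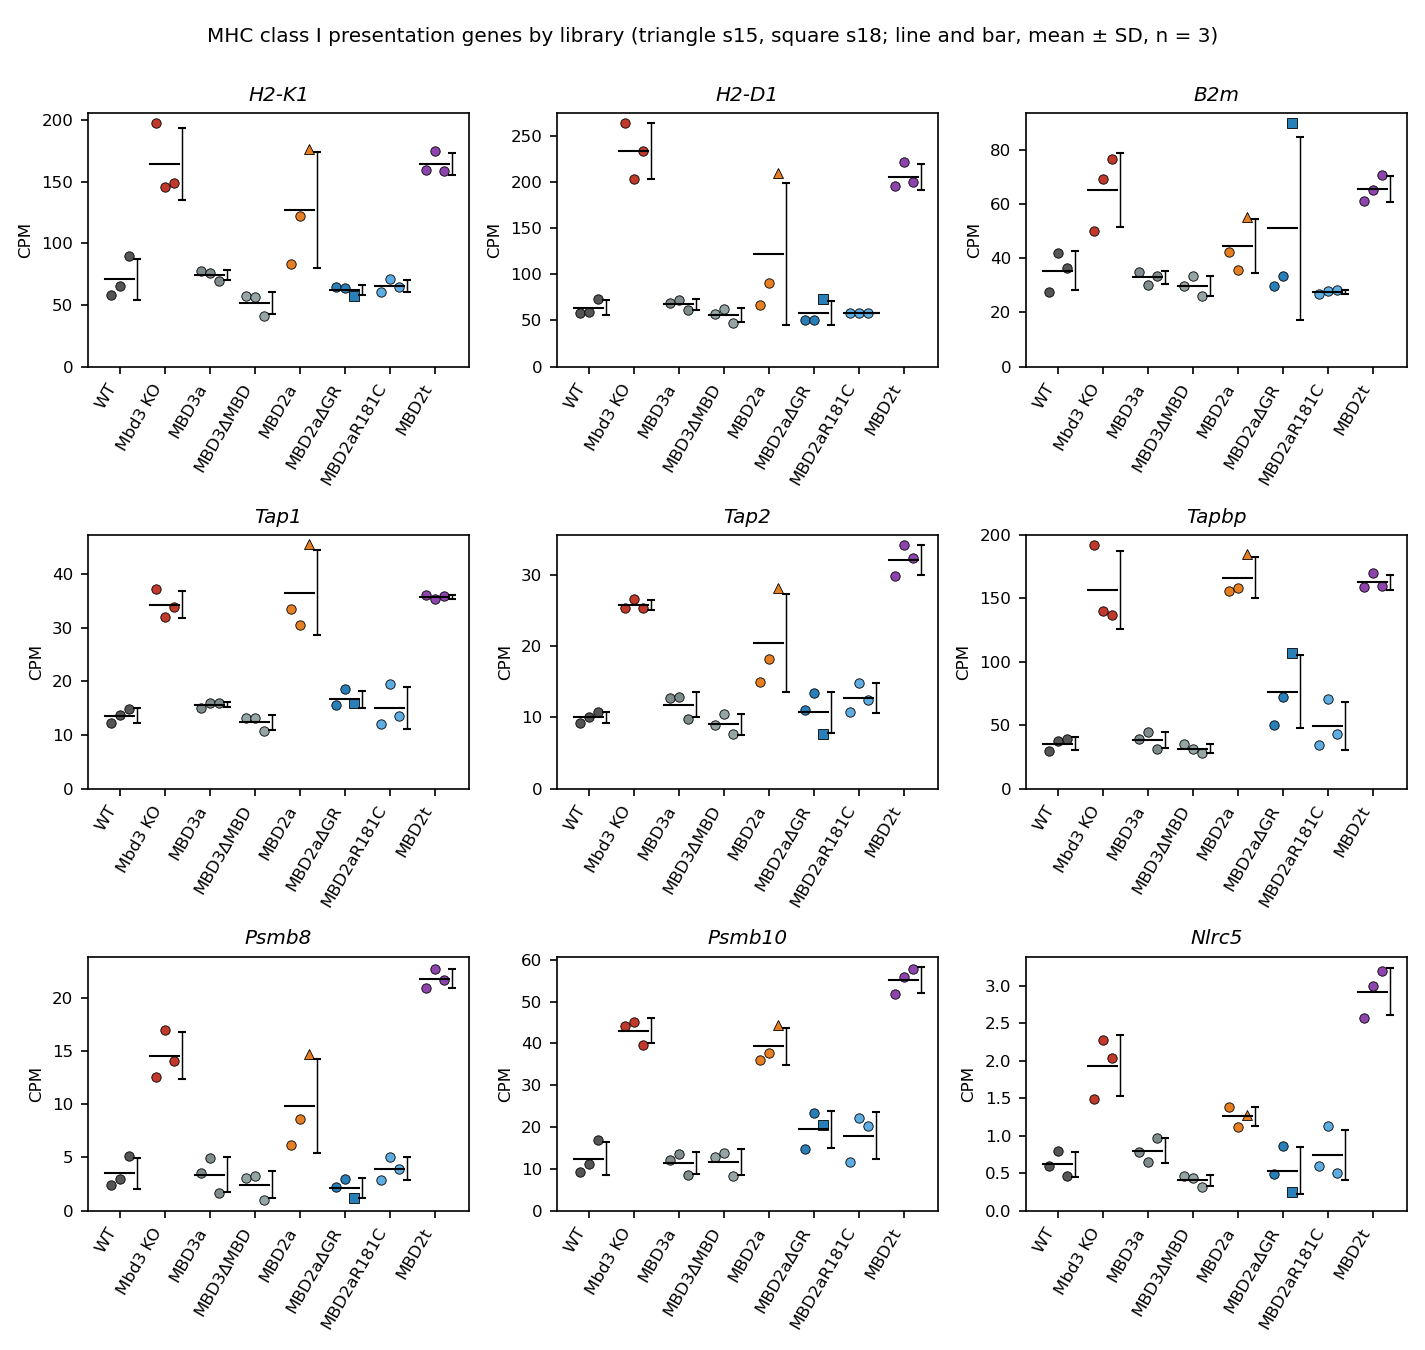
Level of the 9 genes in CPM (vertical axes, starting at 0) in each of the 24 libraries, grouped by line. Points are libraries, horizontal lines the means and bars the SD (n = 3), and triangles and squares mark libraries s15 (MBD2a) and s18 (MBD2aΔGR). *Mbd3* KO and MBD2t lie above WT for every gene, and the triangle is the highest of the MBD2a points in 8 of the 9 panels.

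The exchange of catalytic subunits was followed by the level per kb of *Psmb8* against *Psmb5* and of *Psmb10* against *Psmb7*. For every 100 *Psmb5* there were 0.684, 1.02 and 1.01 *Psmb8* in WT and 3.25, 4.99 and 4.33 in *Mbd3* KO. For every 100 *Psmb7* there were 4.96, 6.52 and 6.52 *Psmb10* in WT and 23.3, 26.7 and 24.6 in *Mbd3* KO. The mean log2 ratios were higher by 2.21 and 2.06, and in both cases the libraries did not overlap (exact two-sided permutation test, p = 0.1, the smallest that 3 against 3 libraries allow). The MBD2a line was higher than WT by 1.49 and 2.04, with p = 0.1 in the same exact test. The MBD2t line was higher by 2.72 and 2.36, and as its libraries are repeats of 1 clone no p is given. In the MBD2aΔGR line only the ratio of *Psmb10* to *Psmb7* was above every WT library. It was at 7.55, 11.4 and 8.27 for every 100, a difference of 0.58 (exact test, p = 0.1). The ratio of *Psmb8* to *Psmb5* in this line was at 0.595, 0.739 and 0.235, a difference of -0.92 (exact test, p = 0.2). For *Psmb10* to *Psmb7*, MBD2aR181C, with 6.11, 11.7 and 8.05, was higher by 0.48 and overlapped WT (exact test, p = 0.3). For *Psmb8* to *Psmb5* it differed from WT by -0.05, with 0.710, 1.25 and 0.707. *Psmb5*, *Psmb6* and *Psmb7* themselves had log2 fold changes of -0.12, -0.05 and -0.24 in *Mbd3* KO and were not called, and none of 14 other core subunits and assembly factors was called in *Mbd3* KO, MBD2a or MBD2t against WT. In *Mbd3* KO these 14 had log2 fold changes with a median of -0.02. In every library the immune subunit of either pair was at the lower level.

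**Figure D3:**
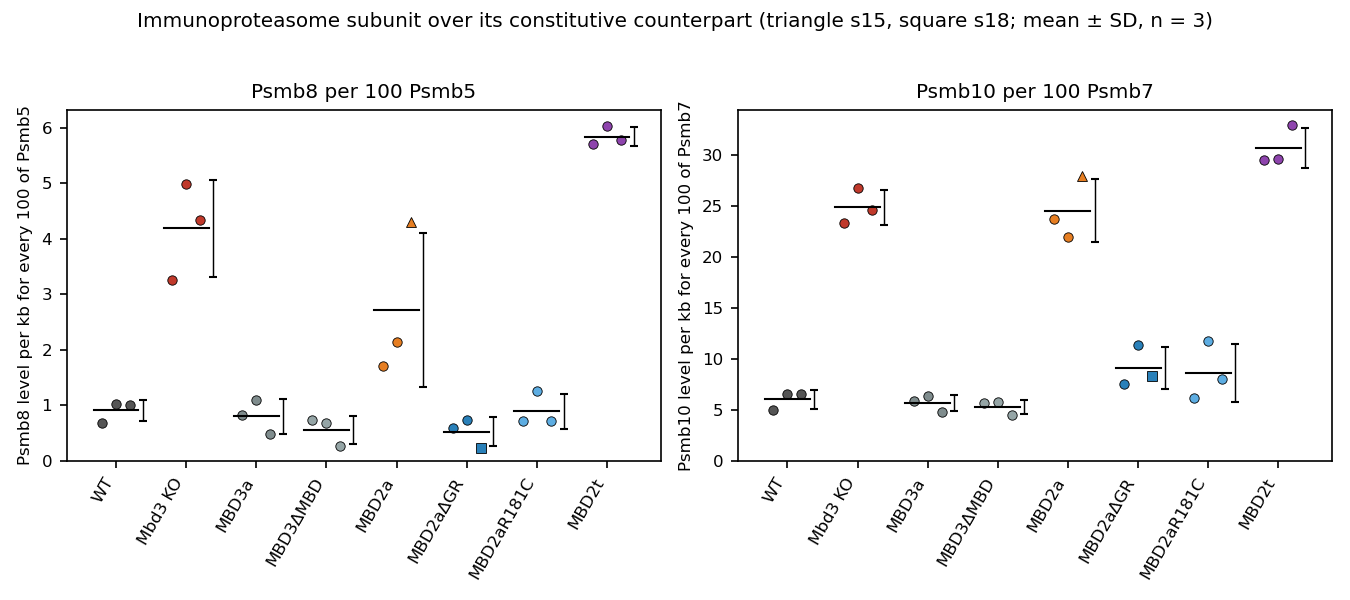
Level per kb of *Psmb8* for every 100 of *Psmb5* (left) and of *Psmb10* for every 100 of *Psmb7* (right) in each library, with the mean and SD of each line (n = 3) and vertical axes from 0. *Mbd3* KO, MBD2a and MBD2t lie above WT in both panels, MBD2aΔGR lies above WT by less in the right panel only, and in the left panel MBD2a library s15 (triangle) lies above the other MBD2a libraries.

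Genes around the pathway were read from fixed lists, and their counts in *Mbd3* KO against WT stand next to 19.6% of all genes called higher and 14.2% called lower. Of 17 other class I and class I-like heavy chains that passed the filter on low counts, 8 were called higher and 1 lower. A gene can pass this filter through the lines where it is high, so this count is a description only. *H2-Q2* had 1.74 to 3.17 CPM in WT and 12.2 to 12.6 CPM in *Mbd3* KO (log2 fold change 2.30, SE 0.34), *H2-Bl* and *H2-Q1* had log2 fold changes of 2.27 and 1.99, and *H2-T10* one of 1.55. The gene called lower was *Fcgrt*, which encodes the neonatal Fc receptor and does not present peptides (log2 fold change -1.10). Of 10 genes for loading and trimming of peptides, 3 were called higher. The tapasin homologue *Tapbpl* rose from 1.91, 2.70 and 2.65 CPM to 12.9, 15.5 and 14.02 CPM (log2 fold change 2.55, SE 0.28, adjusted p = 7.33e-07), and the trimming peptidase *Erap1* and the membrane protein gene *Bcap31* had log2 fold changes of 1.01 and 1.07. The chaperone genes *Calr* and *Canx* and the isomerase gene *Pdia3* had log2 fold changes of 0.69, 0.39 and 0.66 and were not called. Of the 4 proteasome activator genes, the interferon-inducible pair *Psme1* and *Psme2* rose by log2 fold changes of 1.12 and 1.11, and *Psme3* and *Psme4* were not called.

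Of 17 transcription factor genes that act on class I promoters, 5 were called higher and 1 lower, 6 in all, which is near the 33.8% of all genes called. *Irf1* had 7.14, 13.4 and 27.3 CPM in WT and 102, 83.8 and 75.1 CPM in *Mbd3* KO (log2 fold change 2.44, SE 0.48, adjusted p = 0.000242). *Irf9*, which encodes a DNA-binding factor of the interferon response, had a log2 fold change of 1.57. *Irf2*, whose product can compete with IRF1 for its sites, was called lower, with 34.6 to 47.2 CPM in WT and 17.6 to 19.7 CPM in *Mbd3* KO. The X box factor gene *Rfx5* had a log2 fold change of 0.56 and was not called, and the Y box factor genes *Nfya*, *Nfyb* and *Nfyc* had 0.05, 0.02 and 0.10. Of 8 interferon receptor, kinase and feedback genes, only *Socs1* was called (log2 fold change 1.63). The interferon genes themselves were at or near 0, with no more than 3 reads in any library for each of 8 of them, and none was tested.

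Of 12 class II pathway genes, 9 passed the filter on low counts, which a gene can pass through the lines where it is high. Of these, 7 were called higher and *H2-Ab1* lower, next to 19.6% and 14.2% of all genes, and this count is a description only. The invariant chain gene *Cd74* had 0.778, 1.49 and 2.09 CPM in WT and 14.4, 13.8 and 12.9 CPM in *Mbd3* KO. *Ciita*, which encodes the class II counterpart of NLRC5 and is named here after its values were seen, had 2, 0 and 1 reads in the WT libraries and 78, 158 and 111 reads in the *Mbd3* KO libraries. In the MBD2a line *Ciita* was at 0.489, 0.619 and 0.535 CPM, below the 2.23 to 3.50 CPM of *Mbd3* KO, and *Cd74* was at 2.10, 3.98 and 8.13 CPM, with s15 again the highest. *H2-Ab1*, the beta chain of a class II dimer, stood at 8.56 to 11.5 CPM in WT and 4.10 to 4.67 CPM in *Mbd3* KO.

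The lines with a construct were compared with *Mbd3* KO, which they share as control, to ask whether each protein restores the WT state. With MBD3a, 8 of the 9 genes were called lower than in *Mbd3* KO (18.9% of all genes were called lower), and with MBD3ΔMBD all 9 were (20.9% of all genes). The gene not called with MBD3a was *B2m*, with a log2 fold change of -0.99 (SE 0.30, adjusted p = 0.00787). Its place next to the threshold depended on the setting. It was called in DESeq2 (-1.06), with the other 3 scalings, both other filters, the fit of only the 2 lines and the fit without MBD2t (log2 fold changes -1.01 to -1.14), and also without s04 (-1.14) or without s07 (-1.05), and *H2-K1* was not called without s04 (-0.99). *H2-D1* was at 69.0, 72.4 and 61.2 CPM with MBD3a and at 57.4, 61.9 and 47.4 CPM with MBD3ΔMBD, in both cases below every *Mbd3* KO library. *Tapbp* was at 39.1, 44.3 and 31.5 CPM with MBD3a and at 35.2, 30.8 and 27.96 CPM with MBD3ΔMBD. Against WT, 0 of the 9 genes were called in either line. At an unadjusted p under 0.05 there were 0 with MBD3a and 1 with MBD3ΔMBD (*H2-K1*, log2 fold change -0.47), and DESeq2 called 0 in both. The background was 0% of genes called for MBD3a and 0.0181% for MBD3ΔMBD. Of the 9 genes, 8 had lower means with MBD3ΔMBD than with MBD3a, but none was called between these lines (0% of genes called), 2 had an unadjusted p under 0.05, and DESeq2 called 0. *Mbd3* reads were at 168 to 198 CPM with MBD3a and at 423 to 496 CPM with MBD3ΔMBD. The domain and the RNA level of the construct therefore cannot be told apart between these lines. *Psmb8* was at 3.55, 4.89 and 1.67 CPM with MBD3a and at 3.10, 3.22 and 0.973 CPM with MBD3ΔMBD, so that the libraries of each line differed among themselves by 2.93 and 3.31 times.

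In the MBD2a line, whose *Mbd2* reads were close to the *Mbd3* KO level, the genes formed a gradient between WT and *Mbd3* KO, and differences between genes were not tested. *Tapbp*, *Tap1* and *Psmb10* had means closest to *Mbd3* KO, while *H2-D1* and *B2m* had means nearer to WT. Against *Mbd3* KO, 0 of the 9 genes were called (5.25% of all genes were called), 2 had an unadjusted p under 0.05 and DESeq2 called 0. Against WT, 6 of the 9 were called higher, next to 16.9% of all genes. The median log2 fold change of the 9 genes against WT was 1.04, while the median of all genes was -0.01.

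*Tapbp* was measured at 156, 158 and 185 CPM in s13, s14 and s15 (log2 fold change 2.23 against WT, SE 0.25, adjusted p = 2.28e-06), and the *Mbd3* KO values were 192, 140 and 137 CPM. *Tap1* had 33.5, 30.5 and 45.5 CPM (log2 fold change 1.43, SE 0.17) and *Psmb10* 36.03, 37.7 and 44.3 CPM (1.66, SE 0.26), again with the lowest library far above WT. For *Tap1* s14 lay below and s15 above the *Mbd3* KO range, and for *Psmb10* s13 and s14 lay below it. On a scale with WT at 0% and *Mbd3* KO at 100% of the difference in mean log2 CPM, these 3 genes lay at 105%, 105% and 92.8%. *Tap2*, *Psmb8*, *H2-K1* and *Nlrc5* followed at 71.6%, 69.6%, 65.4% and 63.4%, and *H2-D1* and *B2m* came last with 41.01% and 37.1%.

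*H2-D1* had 66.5, 90.0 and 209 CPM in s13, s14 and s15, next to 58.2 to 73.0 CPM in WT. The s15 value lay within the *Mbd3* KO range and the s13 value within the WT range. The mean was below that of *Mbd3* KO by 0.94 on the log2 scale (SE 0.27, adjusted p = 0.0354), under the fold change threshold. Without s15 *H2-D1* was called lower than *Mbd3* KO, with a log2 fold change of -1.59 (adjusted p = 8.46e-06), and without s05 also (-1.03). *H2-K1* had 83.0, 122 and 176 CPM and *B2m* 42.4, 35.6 and 55.4 CPM in the same libraries, and neither was called against WT (log2 fold changes 0.84 and 0.33). *H2-K1* was called against WT without s03 (1.04) or s13 (1.09), and *H2-D1* without s03 (1.05), s13 (1.25) or s14 (1.12). *Tap2*, with 14.9, 18.2 and 28.1 CPM, lost its call against WT without s01 (0.97) or s15 (0.73), and *Nlrc5*, with 1.38, 1.12 and 1.27 CPM, without s03 (0.86) or s13 (0.98). Library s15 was the highest MBD2a library for 8 of the 9 genes, *Nlrc5* being the exception. It also had a summed level of 10 trophoblast markers of 2135 CPM, against 569 and 530 CPM in s13 and s14 and 1754 to 2353 CPM in *Mbd3* KO. The part of these markers in the result was not tested. *Irf1*, with 85.1, 96.7 and 104 CPM, lay above every WT library in all 3.

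**Figure D4:**
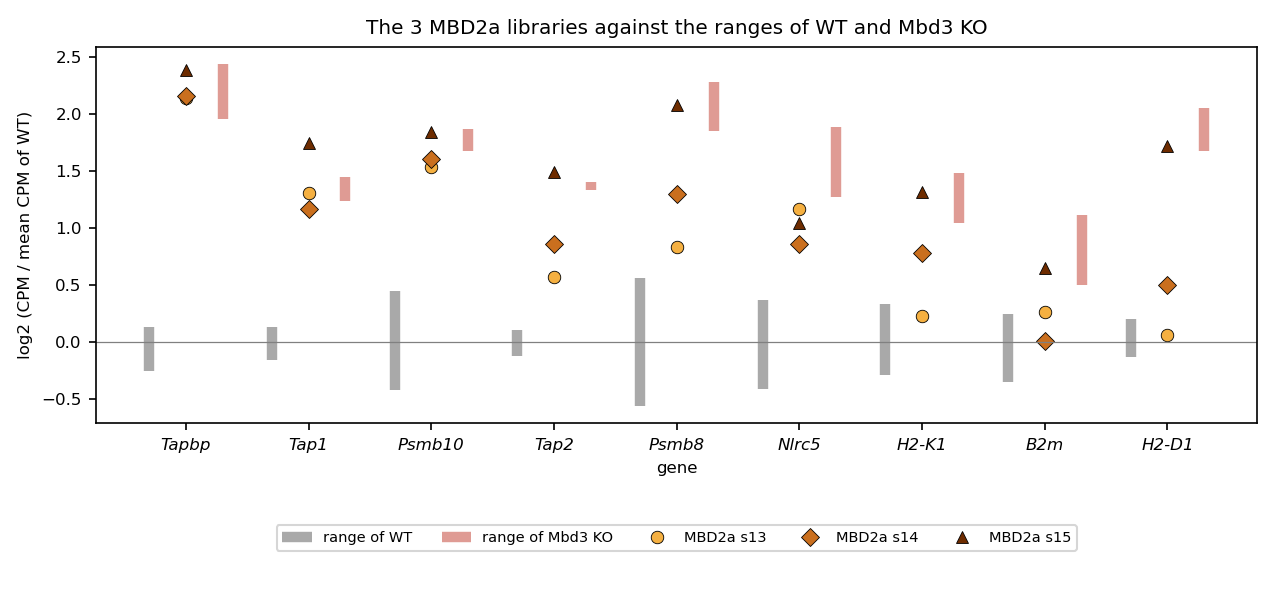
log2 of the CPM in each of the 3 MBD2a libraries over the mean CPM of WT (vertical axis) for the 9 genes, with the range of the 3 WT libraries in grey and that of the 3 *Mbd3* KO libraries in red. *Tapbp*, *Tap1* and *Psmb10* at the left have all 3 libraries near the *Mbd3* KO range, and for *H2-D1* at the right s13 lies in the WT range and s15 in the *Mbd3* KO range.

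The MBD2aΔGR line was compared with *Mbd3* KO, WT and MBD2a to ask whether the glycine-arginine stretch matters. *Mbd2* reads were at 280 to 700 CPM in MBD2aΔGR and at 67.0 to 87.2 CPM in MBD2a. The stretch and the RNA level of the construct therefore cannot be told apart between these lines. Protein was not measured here, and the paper reports equal protein levels of these constructs in ESCs. In MBD2aΔGR, 8 of the 9 genes were called lower than in *Mbd3* KO, with 15.3% of all genes called lower. *H2-K1* was at 64.9, 63.7 and 57.5 CPM and *H2-D1* at 50.4, 50.1 and 72.7 CPM, near the WT values. *Psmb8* had 2.18, 2.98 and 1.19 CPM (log2 fold change -2.79 against *Mbd3* KO, SE 0.44) and *Nlrc5* had 0.491, 0.864 and 0.249 CPM. *B2m* was not called against *Mbd3* KO, and its libraries disagreed, with 29.6 and 33.4 CPM in s16 and s17 and 90.0 CPM in s18, the highest value of all 24 libraries. Without s18, *B2m* was called lower (log2 fold change -1.05, adjusted p = 0.000266). Library s18 had a summed level of 12 extraembryonic endoderm markers of 4117 CPM, against 401 and 300 CPM in s16 and s17, and the part of these cells in the *B2m* value was not tested. *H2-K1* was not raised in s18 next to s16 and s17.

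*Tapbp* was the 1 gene called higher in MBD2aΔGR than in WT (2.69% of all genes were called higher), with 50.0, 72.6 and 107 CPM in s16, s17 and s18 and a log2 fold change of 1.11 (SE 0.25, adjusted p = 0.0156). All 3 values lay above the WT range and below every *Mbd3* KO library. The call was lost without s18 (0.79) and without s01 (0.96), and in the fit of only the 2 lines (adjusted p = 0.285). The pluripotency markers summed to 69.2, 198 and 396 CPM and the trophoblast markers to 158, 173 and 771 CPM in s16, s17 and s18, in the same order as *Tapbp*, and their part in its level was not tested. Against *Mbd3* KO, *Tapbp* lost its call without s04 (-0.86) or s16 (-0.85) and *Tap1* without s04 (-0.98). *Psmb10* was at 14.7, 23.3 and 20.4 CPM, with a log2 fold change of 0.65 against WT that was not called (adjusted p = 0.113). MBD2a was higher than MBD2aΔGR in 7 of the 9 genes (10.6% of all genes were called higher), and the genes not called were *B2m* and *Tap2*. This count was 3 without s15. The calls of *H2-K1*, *H2-D1*, *Tap1* and *Psmb10* were lost, and those of *Tapbp*, *Psmb8* and *Nlrc5* were kept. *Tapbp* (0.94) and *Psmb10* (0.89) were also lost without s16 and *H2-K1* (0.98) and *Nlrc5* (0.89) without s18, while *Tap2* was called without s13 (1.13), s14 (1.04) or s17 (1.16). In the fit of only these 2 lines *H2-D1* and *Nlrc5* were not called (adjusted p = 0.135 and 0.0943).

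With the point mutant MBD2aR181C all 9 genes were called lower than in *Mbd3* KO (18.1% of all genes were called lower), and 0 of the 9 were called against WT (0.0181% of all genes), with 0 at an unadjusted p under 0.05 and 0 in DESeq2. *H2-D1* was steady at 57.6, 58.3 and 58.0 CPM, and *B2m* at 26.9, 27.8 and 28.3 CPM. *Tapbp* was less so, with 34.6, 70.9 and 43.2 CPM in s19, s20 and s21. Library s20 was the highest of the 3 for 8 of the 9 genes, and its summed level of 9 pluripotency markers was 349 CPM, against 29.6 and 139 CPM in s19 and s21. In WT, library s03 was the highest for 7 of the 9 genes and had 187 CPM of these markers, against 25.6 and 43.8 CPM. The libraries with most of these markers in MBD3a (s08, 145 CPM) and MBD2a (s15, 745 CPM) were the highest for 6 and 8 genes. In MBD2t, s22 had the most (739 CPM) and was the lowest for 7 of the 9 genes. In *Mbd3* KO, s04 had the most (1061 CPM) and was the highest for 4 genes and the lowest for 4. In MBD2aΔGR, s18 (396 CPM) was the highest for 3 and the lowest for 4. In MBD3ΔMBD, s10 had the most (51.3 CPM) and was the highest for 4 genes, while s11 had the least (25.7 CPM) and was the highest for 5. The part of such cells in the differences was not tested. Without s19 the call of *Tap2* against *Mbd3* KO was lost (-0.95). MBD2aR181C had *Mbd2* reads of 253 to 325 CPM, so that the point mutation and the RNA level of the construct cannot be told apart against MBD2a. MBD2a was higher than MBD2aR181C in 5 of the 9 genes (15.1% of all genes were called higher), which were *H2-D1*, *Tap1*, *Tapbp*, *Psmb8* and *Psmb10*. The count was 3 without s15, where *H2-D1* and *Psmb8* were lost, and 3 without s19, where *Psmb8* and *Psmb10* were lost. *H2-K1* was called without s13 (1.20), s14 (1.02) or s20 (1.04), and *Nlrc5* without s20 (1.20). In the fit of only these 2 lines *H2-D1* was not called (adjusted p = 0.0631) and *H2-K1* was (1.00). *H2-K1* was also called in DESeq2 (1.02) and with each other scaling (1.02 to 1.10).

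MBD2t, which lacks the coiled coil that binds other NuRD subunits, was compared with *Mbd3* KO, WT and MBD2a. Against *Mbd3* KO the log2 fold changes lay between -0.18 and 0.58, and 0 of the 9 were called (0.0241% of all genes), 1 had an unadjusted p under 0.05 (*Nlrc5*) and DESeq2 called 0. Against WT, 8 of the 9 were called higher, next to 18.2% of all genes, and *B2m* with 61.2, 65.1 and 70.6 CPM had a log2 fold change of 0.89, which was above the threshold without s02 (1.03). *Psmb8* at 20.9, 22.7 and 21.7 CPM, *Psmb10* at 51.8, 55.9 and 57.8 CPM, *Tap2* at 29.8, 34.1 and 32.3 CPM and *Nlrc5* at 2.58, 3.00 and 3.19 CPM lay above every *Mbd3* KO library. In 19% of all genes the libraries of these lines did not overlap, in either direction. The 3 MBD2t libraries share a clone, and differences between clones are missing from their spread. Between MBD2t and MBD2a, which also differ in *Mbd2* reads (335 to 356 against 67.0 to 87.2 CPM), *Nlrc5* was called (log2 fold change 1.21, SE 0.27, adjusted p = 0.00866, 3.14% of all genes called higher). Without s15, *H2-D1* (1.40) and *Psmb8* (1.57) were called too.

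**Figure D5:**
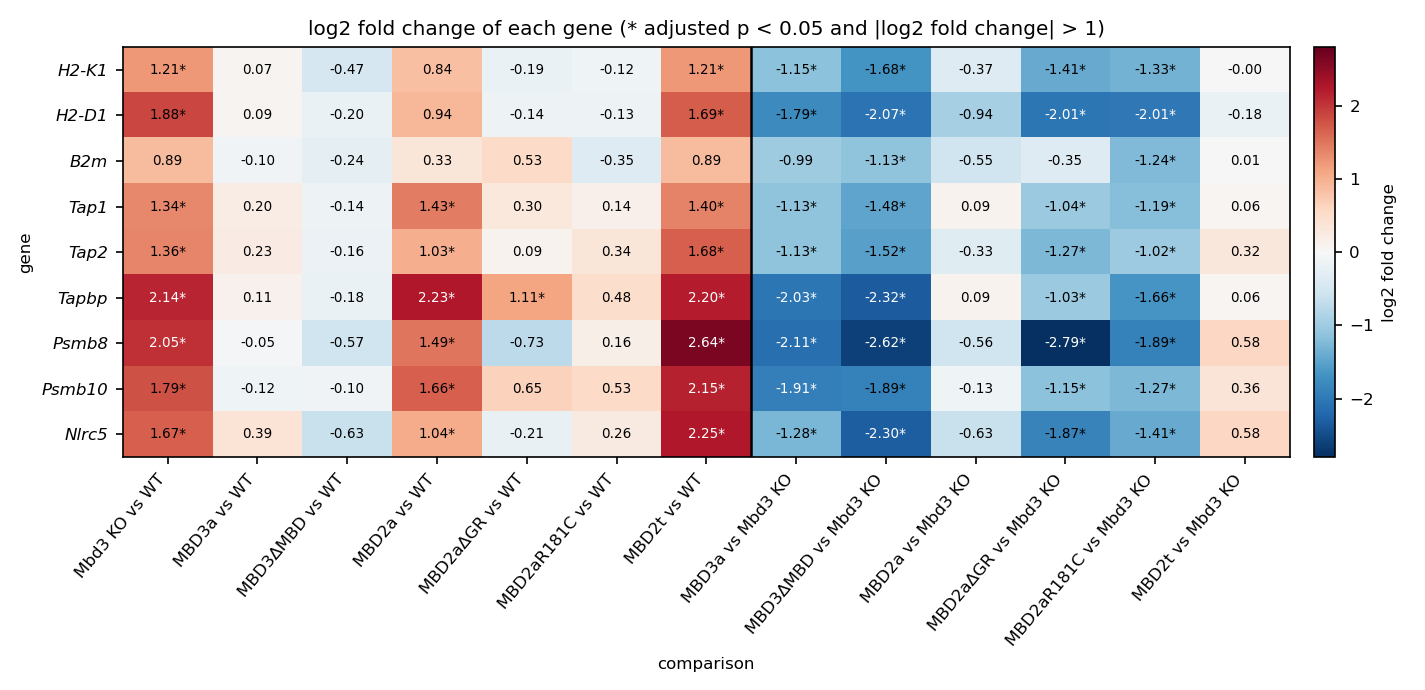
log2 fold changes of the 9 genes (rows) in 7 comparisons with WT (left of the line) and 6 with *Mbd3* KO (right of it), in red where higher and blue where lower, with asterisks on those called. The comparisons of each block share their control libraries. MBD2a and MBD2t have no asterisk against *Mbd3* KO, and MBD3a, MBD3ΔMBD and MBD2aR181C have none against WT.

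Over the 8 lines, the order of the levels was much the same from gene to gene. *Mbd3* KO, MBD2t and MBD2a held the first 3 places for each gene but *B2m*, where MBD2aΔGR with s18 in its mean came before MBD2a. Apart from *B2m*, the lowest of these 3 lines overlapped the line next to it by mean for *H2-D1* only. *H2-K1* in MBD2a, with 83.0 CPM in its lowest library, also overlapped WT, with 89.4 CPM in its highest, though not MBD3a, which came next by mean. *Nlrc5* was the gene for which MBD2t, *Mbd3* KO and MBD2a were each apart from the next by mean. Its lowest MBD2a library (1.12 CPM) still overlapped MBD2aR181C, with 1.13 CPM in its highest. The lower lines overlapped their neighbours, except MBD2aΔGR and MBD3ΔMBD for *H2-K1*. The correlation of each gene with the mean standardised profile of the others over the 8 line means ran from 0.88 (*B2m*) to 0.98 (*Tap2*). The ratio of *H2-D1* to *H2-K1* per kb was -0.28 to 0.02 on the log2 scale in WT, 0.42 to 0.66 in *Mbd3* KO and 0.30 to 0.35 in MBD2t. It was -0.43 to 0.26 in MBD2a, where s15 had the highest value. The genes most like the mean profile over the 8 line means were *Rasgrp1*, *Padi3*, *Nrtn*, *Rell1*, *Itpr3*, *Parp12*, *Alg13* and *Foxe1*, with Pearson r of 0.995 to 0.999. Of the 12806 genes searched, 990 had r above 0.95, so that likeness of this size was common in these libraries. For *Itpr3*, a calcium channel of the endoplasmic reticulum, the mean level was 20.3 CPM in WT and 175 CPM in *Mbd3* KO.

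Several lists of markers of other cells moved with the comparison of *Mbd3* KO and WT. The summed level of 14 white blood cell markers was 8.35 to 12.3 CPM in WT and 59.8 to 79.4 CPM in *Mbd3* KO. Of the 14, 11 stayed under 0.5 CPM in all 3 WT libraries and 9 in all 3 *Mbd3* KO libraries. The trophoblast markers summed to 148 to 310 CPM in WT and 1754 to 2353 CPM in *Mbd3* KO with 10 of 10 called higher, and the pluripotency markers to 25.6 to 187 CPM and 341 to 1061 CPM with 9 of 9 called higher. Endothelial markers summed to 68.3 to 87.4 CPM and 144 to 257 CPM. The 12 extraembryonic endoderm markers summed to 189 to 261 CPM in WT and 130 to 382 CPM in *Mbd3* KO, ranges that overlapped. The sum of 11 fibroblast and feeder cell markers was 125 to 470 CPM in WT and 81.7 to 165 CPM in *Mbd3* KO, with 0 called higher and 5 lower. The part of these cells in the levels of the class I genes was not tested.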

How the data were processed

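Poly(A) RNA of NPCs was sequenced in 24 libraries of 8 lines, 3 libraries each. The authors trimmed the reads with Trim Galore, aligned them with STAR to mm9 and counted reads per gene. The deposited values are whole-number counts of 25400 genes, not normalized. Whether the counting used the strand is not given in the sources used here. The ChIP-seq libraries were not analysed here. Deposited columns name the line and a library number, and their point mutant of MBD2a, which carries another residue number, was taken as the R181C of the labels because there is only 1 such line. No 2 libraries of a line agreed within sampling noise.

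From the counts, edgeR 4.0.16 (R 4.3.3) kept 16582 genes (filterByExpr by line), applied TMM scaling, and gave quasi-likelihood tests for 17 comparisons from 1 fit of all libraries, with Benjamini-Hochberg adjustment over these genes. Called means an adjusted p under 0.05 together with a log2 fold change beyond 1 in size. The SE is the absolute log2 fold change over the square root of F. CPM use TMM-scaled totals, and levels per kb the union of exons in GENCODE M1 (mm9). Depth limits a library to a floor of 3 counts, which covers counting error only. The fit was tested on simulated counts.

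Members and gene lists were chosen with earlier results of these data known. Named besides the members are, from each list, at most 4 genes called in *Mbd3* KO against WT with the largest change whose mean log2 CPM reached 1, and the 8 genes most like the mean profile. Genes named as not called, *Fcgrt*, *Socs1*, *Itpr3*, *H2-Ab1* and *Ciita* serve to describe their lists. The values of 1 transcription factor gene that the naming rule covers are not reported here. Alternatives were other samples, scalings, filters, tests (DESeq2 1.42.0 among them) and thresholds, and leaving out each library.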

Additional observations from a re-analysis of the deposited data

How the results depend on the processing

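No paired analysis was possible because the deposited columns carry library numbers and no replicate numbers. Requiring the change itself to exceed a log2 fold change of 1 (glmTreat) lowered the count of the 9 genes called from 8 to 6 for *Mbd3* KO against WT, where *Tap2* (adjusted p = 0.0652) and *H2-K1* (0.197) were lost, from 8 to 7 for MBD2t against WT, where *H2-K1* was lost (0.2), to 4 for MBD3a, 3 for MBD2aΔGR and 3 for MBD2aR181C against *Mbd3* KO, to 3 for MBD2a and 0 for MBD2aΔGR against WT, to 1 for MBD2a against MBD2aΔGR, 1 for MBD2a against MBD2aR181C and 0 for MBD2t against MBD2a. For MBD2aΔGR against WT it was 0 in the fit of only the 2 lines, and for MBD2t against MBD2a it was 0 in the legacy quasi-likelihood test and 2 with unadjusted p-values. For MBD3a against *Mbd3* KO, *B2m* (-0.99) passed the threshold in DESeq2 and in each other scaling, filter and choice of lines (-1.01 to -1.14). Without a fold change threshold MBD2a against *Mbd3* KO had 1, and with unadjusted p-values MBD3ΔMBD against MBD3a had 1. Leaving out 1 library at a time gave 0 to 1 for MBD2a against *Mbd3* KO, 0 to 1 for MBD2aΔGR against WT, 3 to 8 for MBD2a against MBD2aΔGR, 3 to 7 for MBD2a against MBD2aR181C and 1 to 3 for MBD2t against MBD2a. For *Mbd3* KO against WT it gave 8 to 9, and for MBD2t against WT 8 to 9. In *Mbd3* KO against WT no log2 fold change of a member turned its direction, and *B2m* passed the threshold with library size as the only scaling (1.03). The 6 subunit ratios kept their direction in all alternatives. Depth limits *Nlrc5* most, with 19 to 29 reads per WT library, while the largest SE against WT in *Mbd3* KO was that of *Psmb8* (0.41).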
